A study of Gallus gallus with 16 samples.

Results

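A small set of probe sets on the chicken duodenum arrays fell into a low and a high level, with a gap of at least 2 log2 units between neighbouring values. These switch-like probe sets were chosen from the values alone. The 16 values of each of 38439 non-control probe sets were sorted, and a probe set was kept where the largest gap between neighbouring values was at least 2 log2 units, a 4-fold difference, with 2 or more arrays on each side of it. In all, 57 probe sets met the rule. A further 26 of the 57 were left out because their high arrays were exactly LRFI day 42 replicate 2 and HRFI day 35 replicate 3, which carried pancreatic enzymes. Another 5 were left out because they were annotated to BLB1, MHCY4, SUCLG2 or CYP2C23b, and AVD had none. That left 26 members. The gap, the high arrays and the low arrays chose the members, so differences between high and low arrays are given as a description, with no test. The line and the age of the arrays were not used in the choice.

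Birds with a low residual feed intake eat less than their weight and growth would predict, and birds with a high one eat more. The arrays held duodenum of chickens selected for low (LRFI) or high (HRFI) residual feed intake, at day 35 and at day 42, with 4 arrays in each of the 4 groups. The sources used here give no further treatment, breed or sex and do not state if each array stands for its own bird, so p-values measure only how far these arrays spread, part of which may be technical. All values given are log2 levels, on which 1 unit is a doubling.

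A probe set is a group of short oligonucleotides that together report 1 transcript or several related ones. A gene can have several probe sets, which read different transcripts or different stretches of the same transcript, so that they need not give the same level. On this array design the ending of a name tells how specific the probes are. An ending in s_at marks probes shared by several transcripts, a_at probes shared by transcripts of 1 gene, and x_at probes that may bind unrelated transcripts.

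Some arrays stood apart in ways that touch the members. The mean of 10 measured pancreatic genes reached 13.90 on the HRFI array named above for its pancreatic enzymes and 11.28 on the LRFI one, and stayed at or below 5.66 on each of the other 14. Signal of the actin control was higher at the 3′ than at the 5′ end by over 1 on 5 arrays. These were, at day 35, replicates 3 and 4 of LRFI and 2 and 3 of HRFI and, at day 42, replicate 4 of HRFI. The smaller side of a member's split lay wholly within these 5 arrays for 1 of the 26 members, CUBN. It lay mostly within them for others. For LOC769668, LOC415661, Gga.217.1.S1_x_at, SGK1 and Gga.14644.1.S1_at 2 of its 3 arrays were among the 5. For Gga.13159.1.S1_at and Gga.15752.1.S1_at 3 of 5 were. LOC769668 and LOC415661 have the same split. The matching share over all probe sets was not computed, so these counts do not show whether members differ from other probe sets. The part of the actin difference in these splits was not tested. Duodenal enterocyte genes, 10 of 11 measured, had a mean of 11.60 to 12.25 on all 16 arrays, so enterocyte signal was present on each. The list includes the member CUBN and lacks a reading of PDX1. Whether it sets duodenum apart from other parts of the intestine was not tested. HINTW, a gene of the female W chromosome, read 3.88 to 4.59 on all 16 arrays, with no gap to set a split beside.

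The 26 members differed in how far and where they switched. Their gaps ran from 2.0 to 6.54 log2 units, with a median of 2.68, and 7 were over 4. In 14 members the gap took up more than 50% of the whole range of values, so that each level spanned less than the gap. The smaller side was the high one in 14 members and the low one in 12. It held 2 arrays in 8 members, 3 arrays in 6 and 4 or more in 12. No array carried most of the splits. Each of the 16 arrays was on the smaller side of 3 to 10 members, with 10 on HRFI day 42 replicate 4 and 9 on both LRFI day 42 replicate 1 and HRFI day 35 replicate 2. In 5 members the whole low side lay below 3.75, the 25th percentile of all values, so its low readings were near the bottom of the scale, and in 12 it lay below the median of all values, 5.07.

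Members with a gene symbol numbered 16, for 15 genes. Of these, 10 were characterized genes, RHOG2, SGK1, ARL2BP, SLC4A1AP, N4BP2L1, AvBD1, AHSG, ART1L3, CUBN and DOPEY2. The other 6 were probe sets of 5 loci known only by number, and 10 members had no symbol. At the edge of the rule, DOPEY2 (gap 2.0), Gga.14644.1.S1_at (2.02) and CUBN (2.09) lay just inside. SPP2 (1.93), LBFABP (1.90) and PIT54 (1.85), which split like the member AHSG, lay just outside. By name, 1 of the 16 belonged to the defence genes (AvBD1) and 1 carried a transporter prefix (SLC4A1AP, whose product is an adaptor and not a carrier). Of all probe sets with a symbol, 0.66% and 2.54% did. None of the 16 belonged to antigen presentation or drug metabolism, beside 0.32% and 0.87% of those probe sets. The lists named for interferon response (0.08%), immunoglobulins and T cell receptors (0.55%) and retroviral genes (0.30%) had none either. Apart from the interferon list, symbols were matched by their letters alone, such as any that holds POL. The shares can therefore include genes outside the named groups. At such shares 0 of 16 says little. For antigen presentation and drug metabolism the rule itself had also removed probe sets of BLB1, MHCY4 and CYP2C23b. Probes that may cross-hybridise (x_at) made up 2 of the 26 members (7.69%) and 1.20% of the array. Those shared within a gene (a_at) made up 3 members (11.5%) and 4.57% of the array. Those shared between transcripts (s_at) made up 4 members (15.4%) and 21.5%. These counts of members are small.

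The members with the widest gap and the third widest were neighbouring genes. LOC769668 read 10.90, 11.57, 12.27 and 11.52 on the LRFI arrays of day 35 and 11.58, 12.31, 10.80 and 11.55 on those of day 42. On the HRFI arrays it read 4.26, 3.96, 11.01 and 11.43 at day 35 and 11.47, 11.25, 10.96 and 4.14 at day 42. It was thus low on 3 HRFI arrays, replicates 1 and 2 of day 35 and replicate 4 of day 42, and high on the other 13 arrays, all 8 of LRFI among them. LOC415661 read 12.56, 12.78, 12.97 and 13.07 in LRFI at day 35 and 13.23, 13.38, 11.88 and 13.17 at day 42. In HRFI it read 5.24, 6.43, 12.30 and 12.68 at day 35 and 12.73, 12.70, 12.64 and 6.91 at day 42. The same 3 arrays were low, by at least 4.97 log2 units from any other.

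LOC415661 and LOC769668 are next to each other in the gene order of the assembly GRCg7b, both annotated as protein-coding with no assigned function. The nearest measured genes on either side did not split. LCAT, which encodes the enzyme that esterifies cholesterol in plasma lipoproteins, read 5.87 to 6.81 over all 16 arrays. On the other side the 3 probe sets of LOC415664 read 5.13 to 5.83, 6.44 to 7.10 and 6.23 to 7.06. These levels were at or near the low level of LOC415661 (5.24 to 6.91) on all 16 arrays. Their flat readings therefore cannot show whether a low level like that of LOC415661 extended to them. None of the readings fell to the low level of LOC769668 (3.96 to 4.26). Beyond LCAT, KIAA0895L read 12.29 to 12.82 on its brighter probe set and 6.66 to 7.42 on the other, and neither split. On the HRFI arrays the means were 8.56 ± 3.68 (SD, n = 8) for LOC769668 and 10.20 ± 3.36 (SD, n = 8) for LOC415661, against 11.56 ± 0.55 and 12.88 ± 0.48 in LRFI. The line difference averaged over both ages was 3.0 (SE 1.19) for LOC769668 and 2.68 (SE 1.06) for LOC415661, with an adjusted p of 0.896 for both by limma. Neither passed, and for both genes 5 of 8 HRFI arrays lay within the LRFI range.

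A group of 3 members was high on LRFI arrays alone. Both probe sets of LOC107049264, an uncharacterized protein-coding locus, and Gga.10818.2.S1_s_at, which has no symbol, had the same high arrays. On the first probe set of LOC107049264 the LRFI arrays read 10.33, 6.05, 5.70 and 4.54 at day 35 and 9.77, 5.72, 11.16 and 10.91 at day 42. The HRFI arrays read 5.92, 6.20, 5.88 and 5.75 at day 35 and 5.53, 5.38, 3.42 and 3.87 at day 42. The high level was thus seen on LRFI day 35 replicate 1 and LRFI day 42 replicates 1, 3 and 4, in 4 of 8 LRFI and 0 of 8 HRFI arrays. On the second probe set, whose probes are shared, the LRFI arrays read 9.06, 5.17, 4.80 and 3.29 at day 35 and 8.65, 4.79, 9.76 and 9.43 at day 42. The HRFI arrays read 5.15, 5.96, 5.70 and 5.15 at day 35 and 3.17, 3.0, 3.57 and 2.75 at day 42. These 2 probe sets may hold overlapping probes, so they are not independent readings of the gene.

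Gga.10818.2.S1_s_at read 7.96, 4.54, 4.98 and 4.02 in LRFI at day 35 and 7.37, 3.78, 8.90 and 8.50 at day 42. HRFI values were 4.77, 4.80, 4.43 and 4.64 at day 35 and 4.13, 3.85, 4.0 and 4.14 at day 42. The other 3 probe sets of its cluster number, the design's own grouping of transcripts, did not split and read 5.84 to 6.60, 4.0 to 4.63 and 5.82 to 6.73. LRFI exceeded HRFI by 2.78 (SE 0.81) on the first probe set of LOC107049264, by 2.57 (SE 0.74) on the second and by 1.91 (SE 0.64) on Gga.10818.2.S1_s_at, averaged over both ages. None passed by limma, at an adjusted p of 0.777, 0.777 and 0.844. At day 42 alone the second probe set of LOC107049264 differed by 5.04 (SE 1.05, adjusted p = 0.606), from 8.16 ± 2.29 in LRFI to 3.12 ± 0.34 in HRFI (SD, n = 4). The high arrays included 3 of 4 LRFI arrays and 0 of 4 HRFI arrays at that age.

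The HRFI arrays also differed by age on the second probe set of LOC107049264. The day 42 values (2.75 to 3.57) lay below the day 35 values (5.15 to 5.96) with no overlap, all of them on the low side of the split. All day 42 values were under 3.75, the 25th percentile of all values, and so near the bottom of the scale. The difference was −2.37 (SE 1.05, adjusted p = 0.570) when the 4 groups shared 1 estimate of the spread. The SD between arrays of a group was 2.46 and 2.29 in LRFI and 0.41 and 0.34 in HRFI, at day 35 and day 42. When the 8 HRFI arrays were fitted alone it was −2.37 with an SE of 0.22 and passed by limma (adjusted p = 0.0338). It was the 1 probe set of 38439 to pass in that fit. The adjustment covered the probe sets of that fit and not the many other fits that were run. No other member passed in any of the comparisons and fits that were run. The first probe set of the gene read 5.75 to 6.20 at day 35 and 3.42 to 5.53 at day 42 on the same arrays, and it did not pass in either fit.

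SGK1 and 2 other members showed the reverse line pattern or a low level in HRFI alone. SGK1 encodes a kinase induced by serum and glucocorticoids that regulates ion transport in epithelia. Its member probe set read 7.22, 6.67, 5.40 and 5.74 in LRFI at day 35 and 6.62, 6.84, 7.96 and 7.07 at day 42. In HRFI it read 6.36, 5.59, 10.84 and 6.52 at day 35 and 6.72, 7.61, 10.75 and 11.30 at day 42. High values were thus seen on HRFI day 35 replicate 3 and HRFI day 42 replicates 3 and 4, and on no LRFI array. The first of these is an array with pancreatic enzymes, whose part in its SGK1 value was not tested. The line difference was −1.52 (SE 0.75, adjusted p = 0.897), which did not pass, and it was −0.94 without HRFI day 35 replicate 3. Gga.217.1.S1_x_at was low on 3 other HRFI arrays, at 3.21 on day 35 replicate 2 and at 3.64 and 3.45 on day 42 replicates 2 and 4, while the other 13 arrays read 8.29 to 10.74. N4BP2L1, a gene whose product is little studied, was low on HRFI day 35 replicate 1 (2.45) and HRFI day 42 replicate 1 (2.10). Its other 14 arrays ran from 4.85 to 8.01, with HRFI day 35 replicate 4 the lowest of them.

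Other members switched in both lines. RHOG2 is a small GTPase that acts on the actin cytoskeleton, and its gap took up 84.9% of its range, the largest share among the 26. It read 3.23, 3.38, 3.5 and 3.41 in LRFI at day 35 and 9.89, 3.16, 3.30 and 9.77 at day 42. On HRFI arrays it gave 3.31, 10.37, 3.12 and 3.13 at day 35 and 3.10, 9.87, 2.98 and 3.28 at day 42. The high level was reached on LRFI day 42 replicates 1 and 4, HRFI day 35 replicate 2 and HRFI day 42 replicate 2, so 2 of 8 arrays in each line. The 4 high values lay within 0.60 of each other and the 12 low values within 0.52. The line difference was 0.061 (SE 1.36, adjusted p = 0.998).

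DOPEY2, whose family is known from yeast for a part in membrane traffic, was high on 1 array of every group. It read 2.69, 5.09, 2.64 and 2.66 in LRFI at day 35 and 2.5, 5.64, 2.68 and 2.47 at day 42. In HRFI it read 4.87, 2.79, 2.87 and 2.76 at day 35 and 2.46, 2.57, 2.49 and 5.16 at day 42. ART1L3, an ADP-ribosyltransferase, also had both levels in all 4 groups. Its 6 high values were 8.31, 7.46 and 6.91 on LRFI day 35 replicates 1, 2 and 3, 7.83 on LRFI day 42 replicate 3, 8.24 on HRFI day 35 replicate 2 and 8.97 on HRFI day 42 replicate 1. Its 10 low values were 4.04 to 4.79. High arrays numbered 4 of 8 in LRFI and 2 of 8 in HRFI for ART1L3, and 2 of 8 in each line for DOPEY2.

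SLC4A1AP and ARL2BP switched on few arrays of both lines. SLC4A1AP, an adaptor protein first described as a partner of an anion exchanger, was low on LRFI day 42 replicate 4 (3.84), HRFI day 35 replicate 1 (3.48) and HRFI day 42 replicate 4 (3.74), against 6.30 to 7.72 on the others. ARL2BP, which binds the small GTPase ARL2, was high on LRFI day 35 replicate 4 (7.39) and HRFI day 42 replicate 3 (6.79), against 3.5 to 4.32 on the others. ATP9B, a membrane ATPase of the phospholipid flippase family, split the arrays as ARL2BP did, at 5.94 and 5.87 against 4.09 to 4.75. LOC770450 was high on 5 arrays (10.79 to 12.83), which were LRFI day 42 replicates 1 and 3, HRFI day 35 replicates 2 and 4 and HRFI day 42 replicate 1, and read 5.84 to 7.37 on the other 11.

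LOC770705 and a shared probe set with no symbol had both a low level and a spread high level. LOC770705 read 5.19, 7.67, 9.69 and 8.01 in LRFI at day 35 and 13.08, 10.21, 9.92 and 7.94 at day 42. The HRFI arrays gave 11.34, 11, 10.53 and 7.73 at day 35 and 4.44, 10.84, 9.64 and 11.15 at day 42. LRFI day 35 replicate 1 and HRFI day 42 replicate 1 were low, and the other 14 spanned 5.41 log2 units. The unnamed probe set read 3.55 and 3.22 on the same arrays and 6.29 to 12.40 on the others. Both probe sets had the same 2 low arrays, the same highest array, LRFI day 42 replicate 1, and an intermediate level on LRFI day 35 replicates 2 and 4, LRFI day 42 replicate 4 and HRFI day 35 replicate 4.

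The remaining members with no symbol switched in both lines as well. Gga.517.1.S1_x_at was high on 7 arrays (9.80 to 10.71 against 3.93 to 4.88), and these included the 4 arrays on which RHOG2 was high. Such overlaps were not counted over all pairs of members, so this one does not link the 2 probe sets. Gga.13159.1.S1_at was low on 5 arrays (4.21 to 6.03 against 10.62 to 11.89), and Gga.5846.1.S1_at on another 5 (6.66 to 7.2 against 11.71 to 12.63). Gga.5846.1.S1_at was low on HRFI day 42 replicates 1, 2 and 4 and on 1 array of each line at day 35. Gga.9883.1.A1_at was low on LRFI day 42 replicate 1 and HRFI day 42 replicate 2 alone (6.10 to 6.15 against 9.96 to 11.39). Gga.15752.1.S1_at was low on 5 arrays and had both levels in all 4 groups (4.37 to 5.11 against 7.78 to 8.37). Gga.1504.1.S1_at was high on 5 arrays (8.60 to 9.61 against 5.47 to 6.05) and Gga.14644.1.S1_at on 3 arrays of day 35 (6.20 to 8.16 against 2.32 to 4.18). Some other probe sets of the same cluster number partly followed these members. Gga.14644.1.S1_s_at read 2.83 to 7.75 with a gap of 1.18. It was high on LRFI day 35 replicates 3 and 4, as its member was, and on HRFI day 42 replicate 4. Gga.14644.1.A1_at ran from 3.86 to 4.75. Gga.13159.1.S1_s_at read 9.96 to 11.43 on its member's high arrays and 8.46 to 10.22 on the low ones.

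Most genes with a switch-like probe set had other probe sets that did not switch. Another probe set of the gene was present for 11 of the 16 named members, for 10 genes. Another probe set split the arrays alike, with a gap of its own of at least 1, for 2 members, and these were the 2 probe sets of LOC107049264. The rule did not use the values of the 22 other probe sets that were no members. For LOC770705 the other probe set read 3.25 to 9.75 and was high on LRFI day 42 replicate 1 alone, the array on which the member read its highest value. It read 3.25 to 3.52 on the member's 2 low arrays and 3.72 to 9.75 on the other 14. The 21 others, of 8 genes, had gaps of at most 0.41 and ranges of at most 1.72 over the 16 arrays.

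For RHOG2 the other probe sets read 9.47 to 10.23 and 10.67 to 11.12 on all 16 arrays, a steady level on the 12 arrays where the member read at most 3.5. For SGK1 the other probe set read 11.02 to 12.07 on all arrays and did not set apart the 3 arrays where the member was high. The 2 probe sets of DOPEY2 with the highest levels read 9.02 to 9.30 and 9.54 to 9.88, and its other 3 lay between 2.89 and 7.25. For SLC4A1AP the others read 5.07 to 6.30, 6.30 to 6.89, 6.95 to 7.51 and 2.60 to 3.01, with overlap between the arrays where the member was low and those where it was high. N4BP2L1 had 1 other probe set at 7.62 to 9.34 and 1 at 2.5 to 2.95. For these 5 genes the switch was thus seen by 1 probe set and not by the gene's other probe sets. The dimmest others of N4BP2L1 (2.5 to 2.95), SLC4A1AP (2.60 to 3.01) and DOPEY2 (2.89 to 3.56) lay below 3.75, the 25th percentile of all values. Their flat readings near the bottom of the scale say little about a switch. ARL2BP read 5.97 to 6.42 and 6.66 to 7.15 on its brighter others. Its dimmest other probe set, at 2.42 to 2.75, was slightly higher on the member's 2 high arrays (2.68 to 2.75) than on the 14 low ones (2.42 to 2.68). Which transcripts or alleles each probe set reads was not analysed here.

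AHSG, AvBD1 and CUBN switched on the same arrays as probe sets of several other genes. A probe set was counted as splitting like a member where its own largest gap was at least 1 and its high arrays were the same, and 0.336% of all probe sets had such a gap with 2 or more arrays on each side. By this measure 11 members split like at least 1 other probe set and 15 split alone. Among the 11, only AHSG, AvBD1, CUBN and ARL2BP split like a probe set that was no member. The others matched only members, which the rule had chosen for their gaps. AHSG, the plasma glycoprotein fetuin-A made by the liver, read 4.25, 4.89, 3.78 and 3.90 in LRFI at day 35 and 4.33, 8.22, 5.61 and 4.47 at day 42. HRFI arrays showed 7.75, 4.87, 4.03 and 3.71 at day 35 and 4.10, 3.93, 3.08 and 3.97 at day 42. LRFI day 42 replicate 2 and HRFI day 35 replicate 1 were high, and 9 other probe sets split likewise.

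These 9 included products of the liver. ALB, serum albumin, read 12.03 and 11.24 on the 2 arrays against 3.98 to 9.71 on the other 14. APOH, a plasma glycoprotein, read 7.86 and 6.69 against 3.19 to 4.97. LBFABP, the fatty acid binding protein of liver, read 10.18 and 8.71 against 5.06 to 6.81. SPP2, PIT54, AMBP, RBP4A, SPINK5 and LOC100858647 made up the rest. A list of 25 hepatocyte genes, chosen after the values were seen, had 23 measured genes besides AHSG, and 17 of them were higher on both arrays than on each of the other 14. Of all probe sets, 1.06% were. The mean of the 23 was 8.18 on LRFI day 42 replicate 2 and 7.51 on HRFI day 35 replicate 1, against 5.69 to 6.63 elsewhere. ALB, APOH, LBFABP, SPP2, PIT54, AMBP and RBP4A are among the 17, and each was named above because it split like AHSG. The count and the mean of this list are therefore a description and no test. RBP4, FABP1, F2, VTN, TF and KNG1 were measured and were not among the 17. LRFI day 42 replicate 2 was also the array with the second highest pancreatic level, and HRFI day 35 replicate 1 had a pancreatic mean of 4.59. The part of liver tissue in these values was not tested, and in whole tissue more cells of a type cannot be told from more RNA per cell.

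AvBD1, a beta-defensin of the granules of heterophils, the avian counterpart of neutrophils, was high on LRFI day 35 replicates 1 and 3. It read 9.65, 5.91, 9.49 and 7.25 in LRFI at day 35 and 6.07, 5.84, 5.51 and 6.51 at day 42. In HRFI it read 6.78, 6.26, 5.65 and 6.98 at day 35 and 5.56, 5.60, 5.45 and 5.33 at day 42. LRFI day 35 replicate 4 was the next highest array. AvBD6, AvBD7 and DEFB4A, defensin genes within 5 genes of AvBD1 in the gene order, split the arrays alike. So did CATH1, a cathelicidin, LECT2, a leukocyte chemotactic factor, and both probe sets of HBAD, an alpha-type globin. The defensin genes AvBD3, AvBD4, AvBD5, AvBD8 and AvBD9, also within 5 genes of AvBD1, did not split alike. AvBD9 ran from 3.12 to 9.20 with a gap of 3.07, but its high arrays were not those of AvBD1. AvBD7 read 9.88 and 9.54 on the 2 arrays against at most 7.86 on the others, and HBAD read 11.41 and 10.49 against at most 9.32.

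The marker levels beside AvBD1 were as follows. Of a heterophil granule list chosen after the values were seen, 9 genes were measured besides AvBD1, and 6 were higher on both arrays than on each of the other 14, as were 0.596% of all probe sets. The mean of the 9 was 8.08 and 8.55 on the 2 arrays against 5.57 to 7.41. DEFB4A, AvBD6, AvBD7, CATH1 and LECT2 are among the 6, and each was named above because it split like AvBD1. This count and this mean are therefore a description and no test. MMP9, CSF3R and LYG2 were measured and were not among the 6. On LRFI day 35 replicate 1 they read 4.37, 5.3 and 8.32, below the highest of the other 14 arrays. On LRFI day 35 replicate 3 they read 6.42, 5.76 and 12.06, the highest of all 16 arrays. Of 7 measured erythrocyte genes, HBA1 and HBAD were higher on both arrays, and their list mean was 8.59 and 8.28 against 7.19 to 8.14. Of 5 measured macrophage and granulocyte genes none was. The part of blood cells in the AvBD1 values was not tested. In the limma fit of all 16 arrays AvBD1 had the smallest adjusted p of the members over the 7 comparisons, at 0.204 for day 42 minus day 35 averaged over both lines (−1.51, SE 0.43), and did not pass. Its other probe set, which may bind unrelated transcripts, read 4.53 to 5.38 and did not split.

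CUBN encodes cubilin, an apical receptor of absorptive epithelium that takes up intrinsic factor with vitamin B12 in mammals. It read 9.44, 8.61, 6.49 and 5.05 in LRFI at day 35 and 9.23, 8.90, 8.89 and 9.60 at day 42. For HRFI the values were 9.40, 9.35, 9.85 and 10.15 at day 35 and 8.83, 8.59, 8.83 and 9.18 at day 42. Only LRFI day 35 replicates 3 and 4 were low, and all 12 arrays of the other groups read 8.59 or more. CALB1, the calcium-binding protein calbindin, was low on the same arrays, at 10.42 and 10.87 against 11.98 to 13.22, and CYP2AC1, a cytochrome P450, read 4.61 and 3.54 against 6.27 to 8.76. The actin difference was 1.13 and 1.48 on these arrays. It was 1.83 and 2.07 on HRFI day 35 replicates 2 and 3, which read CUBN at 9.35 and 9.85. The other 9 measured enterocyte genes had means of 12.39 and 12.33 on the 2 low arrays against 12.33 to 12.55 on the rest, and 1 of the 9, SI (sucrase-isomaltase), was lower on both than on all others. Of all probe sets, 2.35% were. The other 3 probe sets of CUBN read 6.27 to 6.98, 3.98 to 4.25 and 3.60 to 4.15 and did not split. The last 2 lay below 5.07, the median of all values, so their flat readings say little about a switch. LRFI was below HRFI at day 35 by −2.29 (SE 0.64, adjusted p = 0.597), from 7.40 ± 2.0 to 9.69 ± 0.38 (SD, n = 4), which did not pass.

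Within 5 genes of the 15 member genes lay 127 probe sets of 73 genes, and 5 of them (3.94%) split like the member nearby. They were the pair LOC415661 and LOC769668 and the 3 defensin genes AvBD6, AvBD7 and DEFB4A near AvBD1. Other defensin genes near AvBD1 did not split like it. Both of the pair are themselves members, which the rule chose for their gaps. Only AvBD6, AvBD7 and DEFB4A were no members, and all of them lie near 1 member. The share is therefore a description and no test of whether neighbouring genes switch together. Of all probe sets, 0.336% had a gap of at least 1 with 2 or more arrays on each side, in whatever split.

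High arrays were counted by line and by day for all 26 members. They were more numerous in LRFI for 13 members, in HRFI for 6 and equal for 7. Of all probe sets with 2 or more arrays on each side of their largest gap, 30.5% had more in LRFI and 38.2% more in HRFI. By age they were more numerous at day 42 for 13, at day 35 for 7 and equal for 6, where the shares of all such probe sets were 34.8% and 39.2%. Members that share a split are counted together among the 22 distinct splits, of which 10 had more high arrays in LRFI and 6 in HRFI, and 10 had more at day 42 and 7 at day 35. The numbers of high arrays in the lines differed by at most 4 of 8, and those in the ages by at most 3 of 8. Both levels were seen within all 4 groups for 3 members (DOPEY2, ART1L3 and Gga.15752.1.S1_at), within 3 groups for 7, within 2 for 14 and within 1 for CUBN and AvBD1. No member had every group at a single level.

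The smaller side lay within 1 line for 10 of the 26 members, where 27.1% of all probe sets with 2 or more arrays on each side of their largest gap did. With 3 or more arrays on each side it was so for 7 of 18 members, against 10.4% of such probe sets. Those 7 were both genes of the adjacent pair, the 3 probe sets high in LRFI, SGK1 and Gga.217.1.S1_x_at, and they amount to 4 of 15 distinct splits. The smaller side lay within 1 day for 4 of the 26 members, CUBN, AvBD1, Gga.9883.1.A1_at and Gga.14644.1.S1_at, where 35.2% of all probe sets with 2 or more arrays on each side did.

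In the fit of all 16 arrays no member passed in any of the 7 comparisons of line and age by limma, a linear model with moderated variances, at an adjusted p under 0.05 over all 38439 probe sets. The exception among the other fits, LOC107049264 by age in HRFI, is given above. For LRFI against HRFI averaged over both ages 0 of 26 members passed, and 0% of all probe sets did. At day 35 the count was 0 of 26 beside 0%, and at day 42 it was 0 of 26 beside 0.0026%. For day 42 against day 35 it was 0 of 26 beside 0.0026% averaged over both lines, 0 of 26 beside 0% in LRFI and 0 of 26 beside 0% in HRFI. For the interaction of line and age it was 0 of 26 beside 0%. At an unadjusted p under 0.05, 8 members differed between the lines averaged over both ages, beside 5.48% of all probe sets. They were LOC769668, LOC415661, both probe sets of LOC107049264, Gga.10818.2.S1_s_at, Gga.5846.1.S1_at (2.14, SE 0.97) and AvBD1 (1.08, SE 0.43), all nominally higher in LRFI, and CUBN (−0.99, SE 0.45), nominally lower. LOC769668 and LOC415661 have the same split, and so do both probe sets of LOC107049264 and Gga.10818.2.S1_s_at. The 8 are therefore not separate results, and their number cannot be read as an excess over the share of all probe sets. Without LRFI day 35 replicate 4 the difference of CUBN was −0.60. With unmoderated statistics 6 of the members had such a p.

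The unadjusted counts in the other comparisons were smaller. They were 4 members for the lines at day 35 (6.66% of all probe sets), 5 at day 42 (5.57%), 1 for age averaged over both lines (11.8%), 4 for age in LRFI (9.83%), 2 for age in HRFI (8.28%) and 6 for the interaction (6.34%). The spread within groups was wide, as the rule implies. The residual standard deviation of the members had a median of 1.85 (0.98 to 3.12), against a median of 0.171 and a 99th percentile of 0.728 over all probe sets. The median SE of a line difference averaged over both ages was accordingly 0.807 for the members and 0.0847 for all probe sets.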

How the data were processed

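RNA of 16 chicken duodenum samples was measured on 1-colour Affymetrix arrays. Total RNA (6 ug) was extracted with Trizol and labelled with biotin, per the labels' protocols. The deposited log2 values were made by the authors with Partek 6.5 and RMA (background correction, quantile normalization and probe summary), per the submitters' processing notes, and were used with no further normalization. RMA understates differences at low levels, and a mismatch between a probe and the RNA it should bind lowers the reading. Precision is limited by the number of arrays.

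Tests and counts leave aside the 96 control probe sets of Affymetrix. Symbols came from the platform annotation where it gave a single one, and gene order from the RefSeq table of GRCg7b, used for names and neighbours alone. The fit was limma 3.58.1 under R 4.3.3, with input through data.table (version 1.17.8), and with 1 mean per group over all 16 arrays, eBayes, and Benjamini-Hochberg adjustment over 38439 probe sets, and it was tested on simulated data. Counts were made in Python 3.11.15 with pandas 2.3.3 and numpy 2.4.6. SD is between arrays of a group and SE is from the fit.

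The members and lists were chosen with earlier results of these data known. Named were members with 1 symbol that were among the 20 of widest gap, passed a comparison, or shared a split with another member or probe set. At most 12 members have values for every array. Unnamed probe sets were shown by ID where they led. The replicate numbers did not pair arrays of different groups. Correlations of the deviations from group means were −0.31 to 0.33 for 24 pairs with the same number and −0.39 to 0.38 for 72 pairs with different numbers. Alternatives were other gaps and array minima, other scalings, left-out arrays, other variance models and a block for the replicate number.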

Additional observations from a re-analysis of the deposited data

Results flagged for a closer look

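In each group of 4 arrays a value was picked out where its gap to the nearest other array, divided by the range of the group, exceeded Dixon's 95% critical value of 0.829. Of 104 group tests over the 26 members 26 were picked out, 14 high and 12 low, in 14 members. Chance alone picks out about 1 in 20 groups, and the members were chosen for their gaps, so these values are a description and no test of the members.

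In DOPEY2 1 array stood far above the other 3 in every group, at 5.09 on LRFI day 35 replicate 2, 5.64 on LRFI day 42 replicate 2, 4.87 on HRFI day 35 replicate 1 and 5.16 on HRFI day 42 replicate 4. RHOG2 stood high at 10.37 on HRFI day 35 replicate 2 and at 9.87 on HRFI day 42 replicate 2. ARL2BP stood high at 7.39 on LRFI day 35 replicate 4 and at 6.79 on HRFI day 42 replicate 3. ART1L3 stood high at 7.83 on LRFI day 42 replicate 3 and at 8.97 on HRFI day 42 replicate 1.

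Of the adjacent pair, LOC769668 stood low at 4.14 on HRFI day 42 replicate 4, and LOC415661 at 6.91 on the same array. LOC415661 was also set apart at 11.88 on LRFI day 42 replicate 3, though on the high side of its split. SLC4A1AP stood low at 3.48 on HRFI day 35 replicate 1 and at 3.74 on HRFI day 42 replicate 4.

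Among members with no symbol, Gga.5846.1.S1_at stood low at 7.2 on LRFI day 35 replicate 1 and at 6.94 on HRFI day 35 replicate 3, and high at 11.71 on HRFI day 42 replicate 3. Gga.15752.1.S1_at stood low at 4.37 on LRFI day 42 replicate 2 and at 4.82 on HRFI day 42 replicate 4. Gga.14644.1.S1_at stood high at 4.15 on LRFI day 42 replicate 2, on the low side of its split, and at 8.16 on HRFI day 35 replicate 4. Gga.517.1.S1_x_at stood low at 4.76 on HRFI day 42 replicate 1, Gga.13159.1.S1_at at 6.03 on LRFI day 42 replicate 1 and Gga.9883.1.A1_at at 6.15 on HRFI day 42 replicate 2. Gga.1504.1.S1_at stood high at 8.60 on HRFI day 35 replicate 4.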

How the results depend on the processing

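The rule gave 26 probe sets, and 48 with a gap of at least 1.5, 15 with one of 2.5 and 12 with 4 or more arrays on each side. Other choices gave 18 (3 or more arrays on each side) to 27 (without the 2 arrays with pancreatic enzymes, 25 of them among the 26), and 24 without the 5 arrays with actin differences over 1, 18 of them among the 26. Leaving out 1 array at a time gave 24 to 30. Chosen after seeing the data, the rule without LRFI day 35 replicates 3 and 4 gave 23, and without the 2 arrays high in AHSG 24. The number of members with another probe set of the gene that split alike was 2 under each alternative run. Members that passed numbered 0 in each comparison under each alternative run, including the replicate block, with 1 exception. That was LOC107049264 for age in HRFI, where 1 member passed when the 8 HRFI arrays were fitted alone. With the replicate block 0 members passed, and 8 had an unadjusted p under 0.05 for the lines averaged over both ages. Without the 5 arrays with actin differences over 1, 4 had such a p for that comparison. Of 16 differences of named members between the lines, averaged over both ages, 5 changed sign without single arrays. Leaving out 1 array at a time gave −0.50 to 0.96 for RHOG2, −0.87 to 0.23 for LOC770450, −0.14 to 0.71 for ARL2BP, −0.11 to 0.77 for SLC4A1AP and −0.34 to 0.38 for DOPEY2. The range was −1.92 to −0.94 for SGK1, with −0.94 without HRFI day 35 replicate 3, and −1.33 to −0.60 for CUBN, with −0.60 without LRFI day 35 replicate 4. The cause was not tested beyond the fewer arrays. None of these 7 passed in any setting. Low readings near the bottom of the scale limit how wide a gap can be measured for members such as RHOG2 and DOPEY2.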
